A study of Mus musculus with 8 samples.

Results

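The genes described here encode STING, the kinases and scaffold proteins that act directly downstream of it, and the cytosolic RNA sensors with their adaptor. They were chosen by symbol on a mouse immune gene panel: Tmem173, which encodes STING, Tbk1, Ikbke, Ddx58, Ifih1, Mavs, Tank and Traf3. All 8 symbols were present among the 750 immune-related genes of the panel, and each had a mean of at least 20 counts.

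MC38 cells, a murine colon cancer line, were implanted into the peritoneum of male wild-type C57BL/6 mice aged 7 to 8 weeks, at 500000 cells per mouse. From day 7 the mice received 2 intraperitoneal injections 3 days apart of PBS or of 15 µg of the STING agonist RR-CDA, a synthetic cyclic dinucleotide, and tumors were collected 10 days after the first injection. RNA of whole tumors was counted on the NanoString nCounter platform, in which color-coded probes are hybridized to transcripts and counted without amplification, in 4 PBS-treated and 4 STING agonist-treated tumors. Total counts over the 750 genes ran from 241506 to 414698 between tumors. The labels give the tissue as colon, but the epithelial genes Epcam, Cdh1 and Muc1 had only 11.6, 28.9 and 11.7 normalized counts on average in PBS-treated tumors and 8.75, 17.8 and 18.3 after the agonist, against a background of 8.62 counts (the 8 negative control probes' mean plus 2 SD, averaged over tumors). PBS-treated tumors 2 and 4 differed by less than sampling noise, since chi-square over degrees of freedom was 0.499 across 320 genes, where other pairs within a group gave 5.42 to 14.9. They were averaged and counted as 1 sample, here called the averaged PBS sample, which left 3 PBS-treated and 4 STING agonist-treated samples. Normalized counts are counts divided by each sample's geometric mean of 20 housekeeping genes, relative to the other samples. The p-values measure only the spread between these samples, since the labels do not say how the tumors were drawn from animals or experiments.

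STING is an adaptor of the endoplasmic reticulum that binds cyclic dinucleotides, made in the cell by the DNA sensor cGAS or supplied as a drug, and then recruits the kinase TBK1, which phosphorylates the transcription factor IRF3. RIG-I and MDA5 sense viral RNA in the cytosol and reach the same kinases through the mitochondrial adaptor MAVS, with TRAF3 and TANK as scaffolds. STING and TBK1 are controlled largely at the level of protein, by binding, phosphorylation and degradation, whereas RIG-I and MDA5 are themselves products of interferon-stimulated genes.

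Transcripts of the pathway differed little between the groups 10 days after the first injection. With edgeR's quasi-likelihood test, 0 of the 8 genes had an adjusted p under 0.05, as did 0 of 750 panel genes (0%). At an unadjusted p under 0.05 the counts were 0 of 8 and 143 of 750 (19.1%), and the Wald test of DESeq2 gave 0 of 8 and 52 of 536 genes with an adjusted value (9.7%). Of the 143 panel genes, 133 were higher (17.7%) and 10 were lower (1.33%) in STING agonist-treated tumors, and the 143 became 84 without treated tumor 1 and 89 without treated tumor 4. The 10 lower genes became 17 without the averaged PBS sample and 21 without treated tumor 3. The balance also depended on the scale, with 87 higher and 40 lower with the TMM scale of edgeR, 81 and 45 with the size factors of DESeq2 and 68 and 31 with the total count. On the housekeeping scale the largest difference was in Ddx58, at 1.33-fold, and the smallest in Tbk1, at 1.02-fold, whereas with the TMM scale the largest in size was in Tbk1 (log2 fold change -0.23) and the smallest in Tmem173 (0.016). The 95% confidence intervals of the 8 ratios reached from 0.747 at the lowest to 1.80 at the highest.

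**Figure D1:**
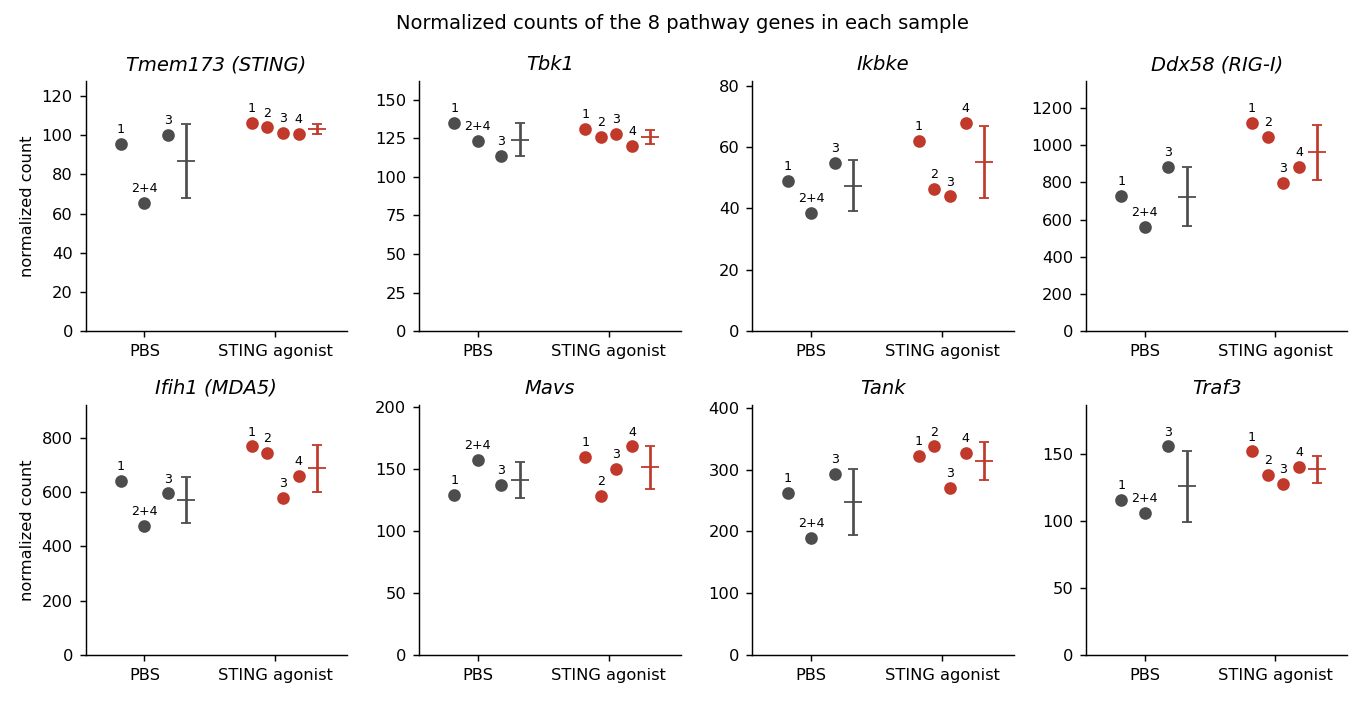
Normalized counts of the 8 pathway genes, with a point per sample (numbers are the tumors, 2+4 is the averaged PBS sample) and the mean with SD beside the points; each vertical axis starts at 0. The averaged PBS sample is the lowest of the 7 samples in 6 of the 8 genes, while Tbk1 lies between 114 and 135 in all samples.

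Tmem173 (STING) had 95.3, 65.3 and 100.1 normalized counts in PBS-treated tumor 1, the averaged PBS sample and PBS-treated tumor 3. The STING agonist-treated tumors 1 to 4 had 106.3, 103.9, 101.2 and 100.6. All treated tumors thus lay above every PBS sample, but the margin between the groups was 100.1 against 100.6, and the averaged PBS sample stood alone as the low one. The groups had means of 86.9 ± 18.9 (SD, n = 3) and 103 ± 2.63 (SD, n = 4), which gave 0.24 as the log2 fold change (SE 0.21, edgeR, adjusted p = 0.584), 0.016 with the TMM scale and 0.00024 with the size factors of DESeq2. Without the averaged PBS sample the log2 fold change was 0.075. The spread of the treated tumors, 2.56% of their mean, was below the 10.1% that counting error alone gives at 98.1 counts, so the margin between the groups was within counting error. Tmem173 was the only one of the 8 genes whose groups did not overlap, against 126 of 750 panel genes that were higher without overlap (16.8%) and 11 that were lower (1.47%). These are whole tumors, in which fewer cells of a type and less RNA per cell cannot be told apart.

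Tbk1, the kinase that phosphorylates IRF3, had 135, 124 and 114 normalized counts in the PBS samples. The treated tumors had 131, 126, 128 and 120.0. Every treated tumor lay inside the range of the PBS samples. The means were 124 ± 10.6 (SD, n = 3) and 126 ± 4.55 (SD, n = 4), and the ratio of the groups had a 95% confidence interval of 0.781 to 1.32 (log2 fold change 0.023, adjusted p = 0.965, edgeR), with a sign that turned to -0.23 with the TMM scale and to -0.037 without PBS-treated tumor 3. The value was 0.088 without PBS-treated tumor 1, 0.0049 without treated tumor 1 and 0.046 without treated tumor 4. The spread between PBS samples was 8.57% of the mean, close to the counting error of 8.89%.

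Ikbke encodes IKKε, the kinase most related to TBK1, which unlike TBK1 is inducible in many cell types. Its normalized counts were 49.0, 38.5 and 54.8 in the PBS samples and 61.9, 46.5, 43.9 and 67.9 in the treated tumors. Treated tumors 1 and 4 lay above every PBS sample, and treated tumors 2 and 3 lay among them. The log2 fold change of 0.21 (SE 0.28, edgeR, adjusted p = 0.748), or -0.030 with the TMM scale, had the widest interval of the 8 genes, from 0.747-fold to 1.80-fold. Ikbke had the lowest counts of the 8 genes, with a mean of 53.3 and a counting error of 13.7%. The ratio of Ikbke to Tbk1 within a sample, which needs no scaling, was higher by 0.18 on the log2 scale in the treated tumors (two-sided exact permutation test over 35 arrangements, p = 0.514), by 0.039 without the averaged PBS sample, 0.048 without treated tumor 4 and 0.35 without PBS-treated tumor 3. This difference was 0.29 without treated tumor 3. The log2 fold change of Ikbke itself was 0.086 without the averaged PBS sample, 0.091 without treated tumor 4 and 0.33 without PBS-treated tumor 3.

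Ddx58 and Ifih1 encode the RNA helicases RIG-I and MDA5. Ddx58 had 726, 562 and 882 normalized counts in the PBS samples and 1120.05, 1043, 795 and 883 in the treated tumors. Treated tumors 1 and 2 were clearly the highest, treated tumor 4 lay next to PBS-treated tumor 3, and treated tumor 3 lay among the PBS samples. The means were 723 ± 160.0 (SD, n = 3) and 960.3 ± 148 (SD, n = 4), differing by 0.41 on the log2 scale (SE 0.20, edgeR, adjusted p = 0.299), a value that was 0.19 with the TMM scale and 0.17 with the size factors of DESeq2. This was the lowest adjusted p of the 8 genes. Its log2 fold change fell to 0.26 without the averaged PBS sample and to 0.33 without treated tumor 1. Its unadjusted p was under 0.05 in 4 of 22 alternatives, without PBS-treated tumor 3 (log2 fold change 0.58), without treated tumor 3 (0.49) and with all 8 tumors as separate samples (0.49, or 0.50 with the replicate number as a block). Over all alternatives its adjusted p ran from 0.129 to 0.708 (edgeR, limma and DESeq2).

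Ifih1 had 641, 474 and 594 normalized counts in the PBS samples and 767, 742, 576 and 660.0 in the treated tumors. Its order over the treated tumors was that of Ddx58, with tumors 1 and 2 high and tumor 3 within the range of the PBS samples. The log2 fold change was 0.27 (SE 0.17, adjusted p = 0.419, edgeR), or 0.029 with the TMM scale and 0.15 without the averaged PBS sample. For both sensors the counting error was small, 3.39% for Ddx58 and 3.94% for Ifih1, and the spread within groups of 12.6% to 22.1% was larger than it.

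The promoters of the sensors are shown because both genes are known to be induced by interferon, and that of Tbk1 is shown for contrast. The sequences are from RefSeq (GRCm38.p6), 250 bases before to 50 after the start of each gene, on the minus strand for each: Ddx58 at chr4:40239776-40240075, Ifih1 at chr2:62646206-62646505 and Tbk1 at chr10:121586745-121587044. Capitals mark a match, on either strand, to 2 copies of GAAA with any 2 bases between them (TTTC on the other strand), the core of the interferon-stimulated response element bound by IRF and STAT factors.
Ddx58: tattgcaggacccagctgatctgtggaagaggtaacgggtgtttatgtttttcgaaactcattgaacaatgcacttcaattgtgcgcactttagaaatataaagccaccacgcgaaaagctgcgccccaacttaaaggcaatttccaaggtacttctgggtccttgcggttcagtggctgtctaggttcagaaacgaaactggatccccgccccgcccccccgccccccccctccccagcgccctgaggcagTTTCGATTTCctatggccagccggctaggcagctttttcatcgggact
Ifih1: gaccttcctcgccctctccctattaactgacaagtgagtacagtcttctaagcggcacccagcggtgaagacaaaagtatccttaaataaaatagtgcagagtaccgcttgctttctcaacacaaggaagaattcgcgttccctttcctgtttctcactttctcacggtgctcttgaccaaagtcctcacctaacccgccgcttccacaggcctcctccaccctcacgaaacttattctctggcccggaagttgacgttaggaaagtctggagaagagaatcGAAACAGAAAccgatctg
Tbk1: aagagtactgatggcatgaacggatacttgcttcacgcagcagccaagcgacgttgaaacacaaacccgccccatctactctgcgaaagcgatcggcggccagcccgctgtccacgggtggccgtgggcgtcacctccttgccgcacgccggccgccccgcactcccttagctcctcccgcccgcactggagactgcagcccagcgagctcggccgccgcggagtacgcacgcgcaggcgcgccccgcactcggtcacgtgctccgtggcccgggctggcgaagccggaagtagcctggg
The match in Ddx58 is on the reverse strand and begins at base 3 of the gene, and the match in Ifih1 reads as printed and begins at base 33. Of 32851 promoter windows of this length, 3.44% held the motif on either strand. Among the 7 pathway genes with a window, it was found in Ddx58 and Ifih1 and not in Tbk1, Ikbke, Mavs, Tank or Traf3. Tmem173 had no window under that symbol, and windows were not searched under its RefSeq symbol, Sting1. The NF-κB motif GGGANTTCC, or its reverse complement GGAANTCCC, was in 1.68% of all windows. Among the pathway genes it was in the window of Traf3 and in 2 of the 4 windows of Tank. These 2 windows of Tank overlap and hold the same site. A match describes the letters of a window and does not show that a factor binds there.

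Mavs, the mitochondrial adaptor of both sensors, had 129.5, 157 and 138 normalized counts in the PBS samples and 160.0, 128, 150.2 and 169 in the treated tumors. It was the only one of the 8 genes in which the averaged PBS sample was the highest of the PBS samples, and treated tumor 2, which was high in both sensors, was the lowest of all. The groups overlapped (log2 fold change 0.10, SE 0.18, edgeR, adjusted p = 0.834), and the sign turned to -0.16 with the TMM scale. The value was 0.044 without PBS-treated tumor 1, 0.049 without treated tumor 4, 0.18 without the averaged PBS sample and 0.17 without treated tumor 2. Relative to Mavs, Ddx58 was higher by 0.32 on the log2 scale in treated tumors (two-sided exact permutation test, p = 0.343) and Ifih1 by 0.17 (exact p = 0.514). Without the averaged PBS sample these differences were 0.072 and -0.034, without treated tumor 2 they were 0.20 and 0.054, without PBS-treated tumor 3 they were 0.49 and 0.23, and without PBS-treated tumor 1 they were 0.40 and 0.32.

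Tank and Traf3 encode scaffold proteins that connect the receptors and adaptors to TBK1 and IKKε. Tank had 263, 189 and 292.5 normalized counts in the PBS samples and 322, 337, 269.8 and 326 in the treated tumors. Treated tumors 1, 2 and 4 lay above every PBS sample and treated tumor 3 did not, with means of 248 ± 53.4 (SD, n = 3) and 314 ± 30.2 (SD, n = 4) and a difference of 0.34 on the log2 scale (SE 0.19, edgeR, adjusted p = 0.362), or 0.12 with the TMM scale and 0.18 without the averaged PBS sample. Traf3 had 116, 106 and 156 normalized counts in the PBS samples and 152, 134, 128 and 140.3 in the treated tumors. All treated tumors lay below PBS-treated tumor 3 and above the other PBS samples, and the log2 fold change of 0.14 (SE 0.20, edgeR, adjusted p = 0.787) turned to -0.089 with the TMM scale, and was 0.029 without the averaged PBS sample and 0.32 without PBS-treated tumor 3. For Traf3 it was 0.079 without PBS-treated tumor 1 and 0.090 without treated tumor 1. With all 8 tumors as separate samples, Tank and Ddx58 made 2 of the 8 genes with an unadjusted p under 0.05, where 201 panel genes passed.

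**Figure D2:**
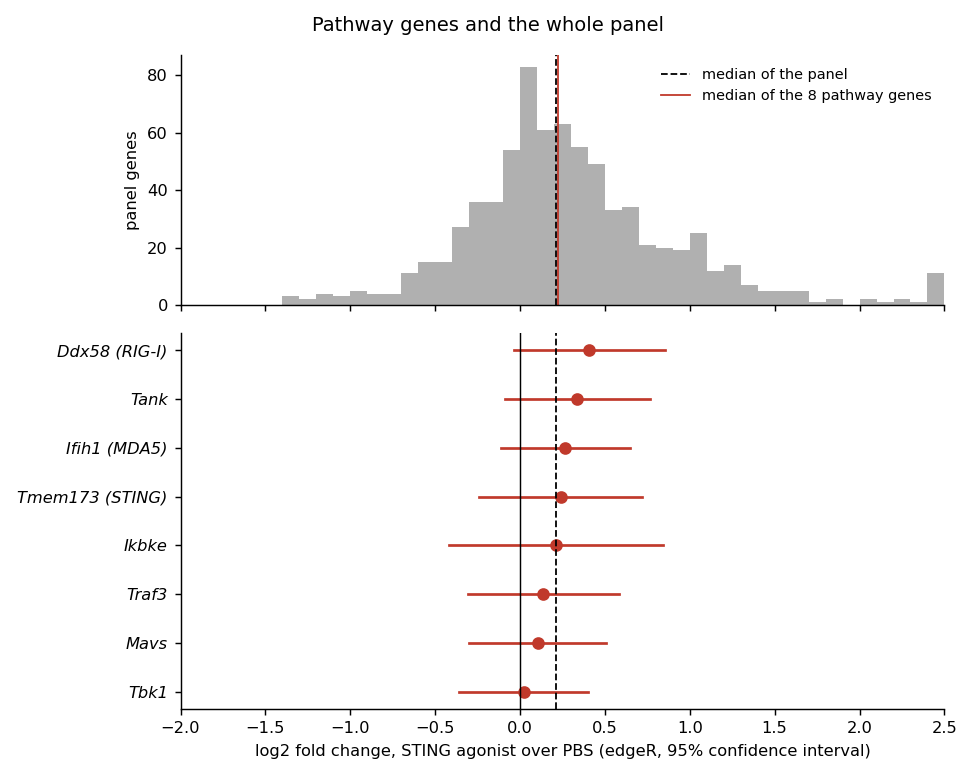
Upper panel, number of panel genes by log2 fold change, with values above 2.5 in the last bar; lower panel, log2 fold change of each pathway gene with its 95% confidence interval (edgeR, housekeeping scale). The medians of the 8 genes and of the panel, 0.23 and 0.21, nearly coincide, and every interval of the 8 genes includes 0; with the TMM scale Tbk1, Ikbke, Mavs and Traf3 lie below 0.

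As a group the 8 genes differed about as much as the panel did. Their median log2 fold change was 0.23, beside 0.21 over all 750 genes, and single genes ranged from percentile 32.3 of the panel, Tbk1, to percentile 64.5, Ddx58. Without PBS-treated tumor 3 the medians of the 8 genes and of the panel were 0.33 and 0.36. They were 0.27 and 0.18 without PBS-treated tumor 1, and 0.12 and 0.16 without the averaged PBS sample. Scales that rest on the bulk of the panel moved the median of all genes from 0.21 to -0.021 (TMM), -0.035 (size factors of DESeq2) or 0.0077 (total count), and that of the 8 genes to -0.0069, -0.023 and 0.0070. With these scales Tbk1, Ikbke, Mavs and Traf3 had negative log2 fold changes, and Tmem173, Ddx58, Ifih1 and Tank positive ones. Relative to the median of the panel, Ddx58 was thus the highest and Tbk1 the lowest of the 8 genes with each of the 6 scales drawn. The genes were also among the steadier ones, with a median SD of 0.208 on the log2 scale within groups, where 339 panel genes in the same range of counts had 0.316.

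**Figure D3:**
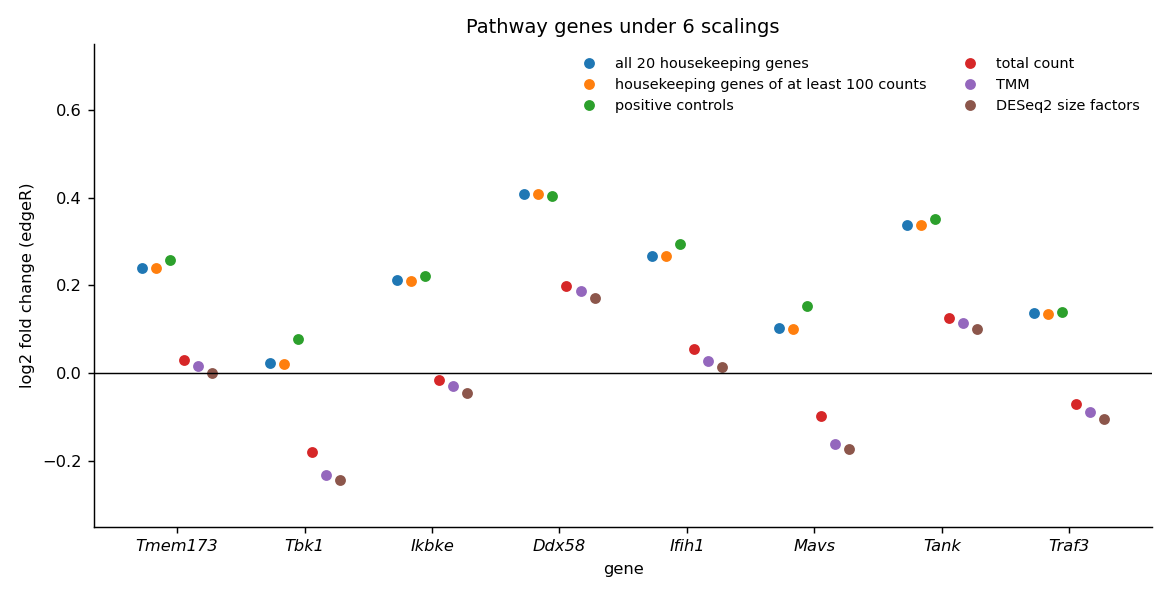
Log2 fold change (edgeR) of each pathway gene with the samples scaled to all 20 housekeeping genes, those of at least 100 counts, the positive controls, the total count, TMM or the size factors of DESeq2. The values with the last 3 scales lie lower in every gene, and those of Tbk1, Ikbke, Mavs and Traf3 fall below 0.

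The other within-sample ratios showed no difference beyond the spread of the samples. The ratio of Tmem173 to Tbk1 was 0.705, 0.528 and 0.880 in the PBS samples and 0.813, 0.825, 0.792 and 0.838 in the treated tumors. The treated tumors were closely grouped inside the range of the PBS samples, with a difference of 0.24 on the log2 scale (two-sided exact permutation test, p = 0.229) that was 0.052 without the averaged PBS sample and 0.42 without PBS-treated tumor 3. The ratio of Ifih1 to Ddx58 was 0.883, 0.844 and 0.674 in the PBS samples and 0.685, 0.712, 0.725 and 0.747 in the treated tumors, a difference of -0.15 (exact p = 0.257), or -0.074 without PBS-treated tumor 1 and -0.27 without PBS-treated tumor 3. After Benjamini-Hochberg adjustment over the 5 ratios each p was 0.514, and the smallest p that this design allows is 0.029.

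**Figure D4:**
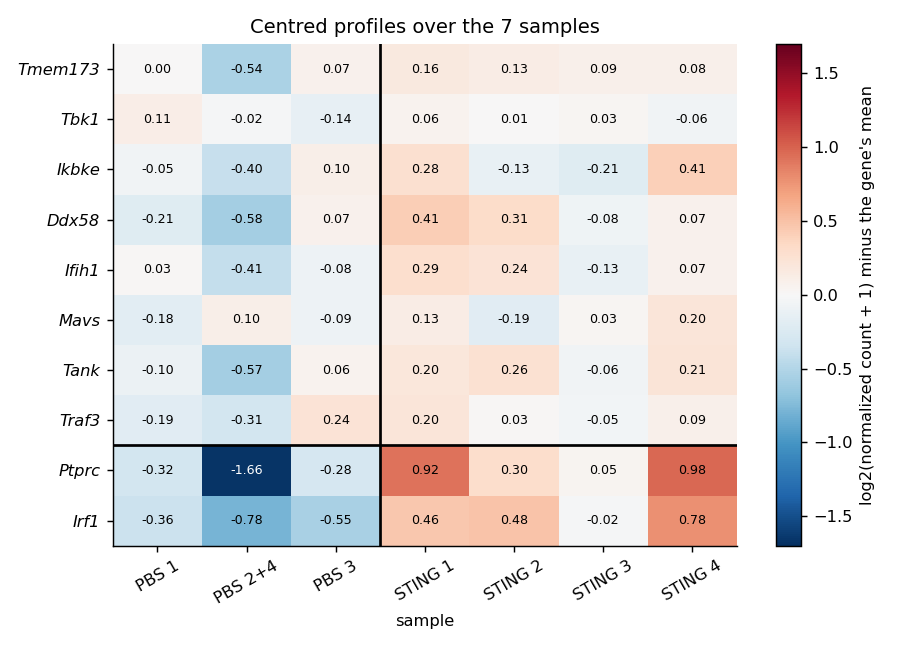
Log2(normalized count + 1) of each gene minus its mean over the 7 samples, for the 8 pathway genes and, below the line, Ptprc and Irf1. The averaged PBS sample is low in Tmem173 (-0.54), Ddx58 (-0.58) and Tank (-0.57) and lowest in Ptprc (-1.66), while Tbk1 stays between -0.14 and 0.11.

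The averaged PBS sample was the lowest of the 7 samples in Tmem173, Ikbke, Ddx58, Ifih1, Tank and Traf3, that is in 6 of 8 genes, though by little in Traf3 (106 against 116 normalized counts), and in 231 of 519 panel genes with a mean of at least 20 counts (44.5%). Treated tumor 1 was the highest sample in 3 of the 8 genes and in 165 of these panel genes (31.8%). The leukocyte marker Ptprc, which encodes CD45, was also lowest in the averaged PBS sample, with 108, 42.0 and 111 normalized counts in the PBS samples and 257, 166, 140.0 and 267 in the treated tumors. It was higher by 1.24 on the log2 scale (SE 0.38, adjusted p = 0.181 with edgeR and 0.028 with DESeq2) and had 4 of 4 treated tumors above the PBS samples. The part of leukocyte content in the values of the pathway genes was not tested.

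The marker lists describe what these whole tumors held. Summed over 7 macrophage and monocyte genes, of which Cd68 was the most abundant, normalized counts were 1696, 893 and 2092 in the PBS samples and 2915, 2011, 2214 and 2898 in the treated tumors, and 2 of the 7 genes were higher at an unadjusted p under 0.05, a threshold that 17.7% of the panel passed in that direction. The 10 T cell genes, led by Cd3d, summed to 204, 128 and 233 against 473, 254, 253 and 429, with 4 of 10 higher, while Cd4 had 6.09 normalized counts on average in the PBS samples and 6.00 in the treated tumors, both below the background of 8.62. Natural killer cell genes (1 of 4 higher), dendritic cell genes (1 of 4), endothelial genes (1 of 5), B cell genes (0 of 5), neutrophil genes (0 of 3) and epithelial genes (0 of 3) gave 0 lower genes and shares near that of the panel or at 0, and among 5 fibroblast genes 1 was higher and 1 lower (edgeR, unadjusted p under 0.05). Single samples moved these counts: the 4 T cell genes became 1 without the averaged PBS sample, treated tumor 1 or treated tumor 4 and 2 without PBS-treated tumor 1, the 2 macrophage genes became 3 without the averaged PBS sample and 1 without treated tumor 1. Over the samples left out singly, 77 to 153 of 750 panel genes were higher. The count of 1 became 0 for natural killer cell genes without the averaged PBS sample, treated tumor 1 or treated tumor 4, and for higher fibroblast genes without any sample but PBS-treated tumor 3 or treated tumor 3. The lower fibroblast genes numbered 0 without PBS-treated tumor 1 or treated tumor 1, and with the TMM scale 0 fibroblast genes were higher and 2 lower. Without the averaged PBS sample 2 endothelial genes were higher and 1 epithelial gene lower, and without PBS-treated tumor 3, 1 B cell gene was higher. The higher dendritic cell gene was Itgax, at 4.25-fold without overlap (adjusted p = 0.171, edgeR), with means of 4.01 in the PBS samples and 17.1 in the treated tumors. Its PBS mean and both means of Xcr1 (5.42 and 7.58) lay below the background of 8.62. Flt3 had means of 13.2 and 10.1, and Ccr7 of 23.3 and 29.4. The fibroblast sums, led by Col3a1, were 10563, 9050.1 and 8901 in the PBS samples and 7900, 8806, 6675 and 8699 in the treated tumors. Hepatocyte genes were high in treated tumor 4 alone, at a sum of 1734 normalized counts over 13 genes where the other samples had 141 to 291, most of all from Ambp with 762, and 2 of the 13 were higher before adjustment (median log2 fold change 1.61). Without treated tumor 4, 0 of the 13 were higher and 2 were lower, with a median of -0.30, and without any one PBS sample 0 were higher, against 3 without treated tumor 1 or 2 and 4 without treated tumor 3. Without treated tumor 4 the median log2 fold change of the 8 pathway genes was 0.19.

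The genes nearest in profile to each pathway gene, by the root mean square difference of centred log2 values over the 7 samples among 519 genes, varied with the gene. Tmem173 was nearest to Cd47 (0.052), Pml (0.086) and Casp8 (0.088), and Tbk1 to Axl (0.089). Ifih1 was nearest to Ifi35 (0.069), itself an interferon-stimulated gene, then to Rel (0.079) and Casp8 (0.108). Ddx58 was nearest to Rel (0.102), Tank (0.109) and Mapk11 (0.112), the only case of another of the 8 genes among the nearest 3. Tank was nearest to Atm (0.065), Rel (0.067) and Sbno2 (0.083), and Traf3 to the NF-κB pathway genes Chuk (0.071) and Rela (0.073), followed by Pml (0.075). Mavs was nearest to Tmed1 (0.066), Ly96 (0.069) and H2-D1 (0.074). Ikbke, which had the lowest counts of the 8 genes, had the least close neighbors, Ddx60 (0.112), Tapbp (0.117) and Map2k2 (0.128). Counting error was 13.7% for Ikbke and 10.1% for Tmem173, and the order of neighbors was not tested against it.

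**Figure D5:**
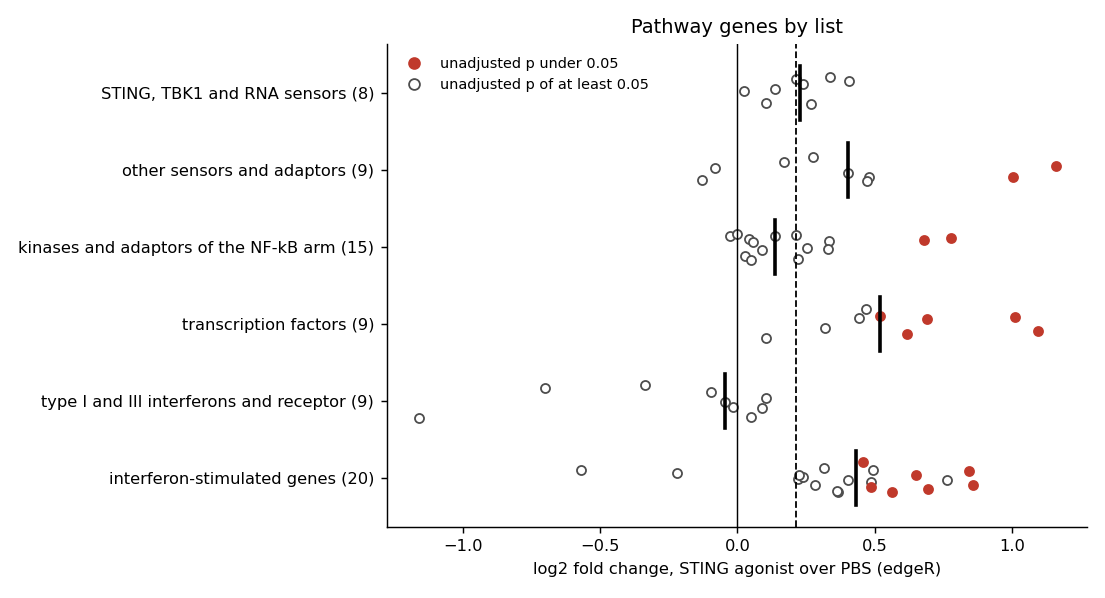
Log2 fold change (edgeR, housekeeping scale) of single genes in the 8 pathway genes and 5 related lists, with the number of genes in brackets; filled points have an unadjusted p under 0.05, thick bars are list medians and the dashed line is the panel median of 0.21. Filled points are in the sensor, NF-κB, transcription factor and interferon-stimulated lists, and with the TMM scale the medians of the 8 genes and of the NF-κB list turn below 0, where that of the interferon list already is.

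As a list, the transcription factors further down the pathway had a higher median log2 fold change than the 8 genes. Single factors such as Irf3 lay within the range of the 8 genes, and the contrast was not tested. Of 9 transcription factors on the panel, 5 were higher and 0 lower before adjustment (edgeR, p under 0.05) and 0 passed after it, with a median log2 fold change of 0.52 beside the panel's 0.21, where 17.7% of the panel was higher. Irf1, an interferon-induced factor, had 1142, 852 and 999.98 normalized counts in the PBS samples and 2023, 2050.02, 1449 and 2517 in the treated tumors, 2.01-fold higher without overlap (adjusted p = 0.171 with edgeR, 0.0475 with edgeR without treated tumor 3 and 0.0021 with DESeq2). Stat2 was 1.43-fold higher, also without overlap (adjusted p = 0.203, edgeR), with a log2 fold change of 0.52 that was 0.27 with the TMM scale. Irf7, which carries the late phase of interferon production, was 1.54-fold higher, again without overlap (adjusted p = 0.223, edgeR), and its log2 fold change of 0.62 was 0.38 with the TMM scale. Neither reached an unadjusted p under 0.05 with that scale. Irf3, the substrate of TBK1, had 174, 174 and 199 normalized counts against 232, 154, 195 and 201, with overlapping groups and a log2 fold change of 0.10 (adjusted p = 0.838, edgeR) that turned to -0.15 with the TMM scale and was 0.011 without treated tumor 1, 0.20 without treated tumor 2 and 0.17 without PBS-treated tumor 3. With the TMM scale 2 of the 9 factors were higher at that threshold, beside 87 of 750 panel genes. The count was also 2 without the averaged PBS sample or treated tumor 1, beside 90 and 77 of 750.

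Of 20 interferon-stimulated genes, 7 were higher and 0 lower at that threshold before adjustment, with a median of 0.43, beside 17.7% of the panel higher. With the TMM scale 2 of 20 were higher, beside 87 of 750 panel genes (11.6%), and without treated tumor 1 the count was 4 of 20, beside 77 of 750. Herc6 was 1.79-fold higher and Cxcl10 1.81-fold, both without overlap (adjusted p = 0.171 and 0.175 with edgeR, 0.019 and 0.028 with DESeq2), and Ifi44 was 1.62-fold higher with overlap. Of 9 other sensors and adaptors 2 were higher and 0 lower, near the panel's share. Zbp1, a sensor of Z-form nucleic acid, had 1381, 1237 and 1540.3 normalized counts in the PBS samples and 3594, 2581, 1761 and 3173 in the treated tumors, 2.0-fold higher without overlap (adjusted p = 0.171 with edgeR, 0.0475 with edgeR without treated tumor 3 and 0.012 with DESeq2), and its log2 fold change was at least 0.73 in each alternative. Tlr9 was 2.26-fold higher without overlap on means of 22.2 and 50.2. Tlr3, at 1.40-fold, did not reach the threshold, except in 3 of 22 alternatives. Its log2 fold change of 0.48 was 0.27 without the averaged PBS sample and 0.26 with the TMM scale.

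Among 15 kinases and adaptors of the NF-κB arm, 2 were higher and 0 lower, no more than the panel's 17.7%. The median of the 15 genes, 0.14, was -0.085 with the TMM scale, under which 0 of 15 were higher, beside 87 of 750 panel genes. The 2 higher genes were Tnfaip3, the NF-κB-induced inhibitor A20, at 1.6-fold and Irak2 at 1.71-fold. Traf2, with the next lowest p, did not reach the threshold, except in 1 of 22 alternatives. The count was 0 of 15 without PBS-treated tumor 1 or treated tumor 1 and 1 of 15 without PBS-treated tumor 3, treated tumor 3 or treated tumor 4, and the other sensors had 1 of 9 without the averaged PBS sample, treated tumor 1 or treated tumor 4. Over the samples left out singly, 77 to 153 of 750 panel genes were higher. The median of the 15 genes was 0.049 without the averaged PBS sample, 0.071 without PBS-treated tumor 1 and 0.25 without PBS-treated tumor 3. Most values of the interferon genes themselves lay near the background. Of 9 genes for interferons, their receptor and its kinases, 0 were higher and 0 lower (edgeR, unadjusted p under 0.05), and 1 was lower with the TMM scale, without the averaged PBS sample or without treated tumor 3. The panel had 40, 17 and 21 lower genes of 750 in these fits. Ifnb1, the interferon gene best known as a target of the STING pathway, had 8.64 ± 2.51 (SD, n = 3) and 8.65 ± 2.67 (SD, n = 4) normalized counts, both at the background, so a difference was not detectable at this depth. Ifna1 had 13.9, 5.83 and 37.5 against 7.01, 6.11, 15.3 and 6.18, so that PBS-treated tumor 3 alone was well above the background, and the log2 fold change of -1.16 was -0.21 without it. Ifnl2 had means of 8.34 and 5.21, near the background. The receptor gene Ifnar1 had 404 ± 16.6 (SD, n = 3) and 435 ± 25.4 (SD, n = 4), a log2 fold change of 0.11 (adjusted p = 0.738, edgeR) that turned to -0.14 with the TMM scale and was 0.065 without treated tumor 1.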

How the data were processed

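RNA of 8 peritoneal MC38 tumors was measured by the authors on the nCounter PanCancer Immune mouse panel, and they deposited the count of each of 784 probes (750 genes, 20 housekeeping genes, 8 negative and 6 positive controls), without normalization or background subtraction; the lowest count was 1. Groups and replicate numbers came from the sample labels. The dose came from the methods of the study, which refer to its figures for the times of injection. Its results give the number and interval of the injections and the days to collection. Its figure legend pools 2 experiments without naming that of each tumor. The pathway genes and lists were chosen with earlier results of these data known, and the promoter motifs after the sequences were seen.

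PBS-treated tumors 2 and 4 were replaced by their rounded mean. The geometric mean of the housekeeping genes served as library size; their log2 differences between groups lay between -0.219 and 0.181. All 750 genes were fitted in edgeR 4.0.16 (R 4.3.3, quasi-likelihood test) without a covariate or filter, with Benjamini-Hochberg adjustment over 750 genes at 0.05, and the test was tried on simulated data. Confidence intervals (95%) used its standard errors. Ratios were compared by two-sided exact permutation in Python 3.11.15. Named genes were the 8 pathway genes, the 2 or 3 lowest p of each list with Irf3, Irf7 and Ifnb1, and the 3 nearest profiles of each pathway gene (pseudocount 1), of which a few are left unreported; Ptprc, Ambp, Epcam, Cdh1, Muc1 and other markers came from the marker lists. Alternatives were 5 other scales, subtraction of negative controls, 2 filters, DESeq2 1.42.0, limma 3.58.1 (pseudocounts 1 and 20), the per-gene test the methods name, each sample left out, all 8 tumors separate and the replicate number as a block. Probes matched RefSeq genes by transcript in 727 cases, by symbol in 16 and by an older symbol in 1, and 6 had no match.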

Additional observations from a re-analysis of the deposited data

Results flagged for a closer look

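The groups of 4 treated tumors were searched for a tumor far from the other 3, as the gap to its nearest neighbor over the range of the group, against Dixon's 95% critical value, in 42 genes, ratios and marker sums. Chance gives about 1 in 20 such cases, or 2.1 here, and 2 were found. The summed hepatocyte markers stood apart in treated tumor 4 (0.987), at 1734 normalized counts where the other 3 had 141 to 162. Ifna1 stood apart in treated tumor 3 (0.903), with 15.3 normalized counts near the background. None of the 8 pathway genes met the limit.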

How the results depend on the processing

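Over the alternatives, 0 of the 8 pathway genes reached an adjusted p under 0.05 with edgeR, limma or DESeq2. The lowest counts limit Ikbke, and near the background Ifnb1 has no settled direction (below 0 in 12 of 21 alternatives), while Ifna1 and Ifnl2 were below 0 in each; Ifna1, Ifnl2 and Ifnb1 gave no value in filters that removed them. Of 568 values for 26 single genes, 532 kept their direction and did not pass the threshold (DESeq2 gave no adjusted p for Ifna1, Ifnl2 and Ifnb1), 28 changed sign and 8 passed it, 5 of these with DESeq2 (Irf1, Zbp1, Herc6, Cxcl10 and Ptprc) and 3 without treated tumor 3 (Irf1, Zbp1 and Herc6). The cause of these changes was not tested, beyond the shift of the whole panel with its scale.

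With the TMM scale, the size factors of DESeq2 and the total count, in this order, log2 fold changes turned negative in Tbk1 (-0.23, -0.24 and -0.18), Ikbke (-0.030, -0.046 and -0.015), Mavs (-0.16, -0.17 and -0.099), Traf3 (-0.089, -0.11 and -0.070), Ifnar1 (-0.14, -0.15 and -0.096) and Irf3 (-0.15, -0.16 and -0.11), and the median of the 8 genes was -0.0069, -0.023 and 0.0070. Ifnb1, at -0.017, turned to 0.0090 with the positive controls, 0.13 after subtraction, 0.0016 with the per-gene test of the methods and 0.10 with all 8 tumors separate.

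Leaving out each sample, panel genes with an unadjusted p under 0.05 numbered 84 (without treated tumor 1) to 160 (without PBS-treated tumor 3), with 89 without treated tumor 4, and pathway genes 0 to 1. The genes after adjustment numbered 1 without PBS-treated tumor 3 and 7 without treated tumor 3. The median of the 8 genes ran from 0.12 to 0.33, Tbk1 from -0.037 to 0.088, Ifnb1 from -0.23 to 0.26, and the difference in the ratio of Ifih1 to Mavs from -0.034 to 0.32. With all 8 tumors separate, 2 pathway genes had an unadjusted p under 0.05.

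The replicate numbers did not pair the samples (correlations of deviations between same-numbered tumors of -0.06, -0.08, -0.28 and -0.13, and 0 of 4 numbers correlated best with their own). With the replicate block, 172 panel genes and 1 pathway gene had an unadjusted p under 0.05 with all 8 tumors separate, and 104 and 0 with tumors 2 and 4 averaged, with medians of the 8 genes of 0.31 and 0.26. Ifnb1 had 0.13 and 0.027 in these replicate block fits. The ratio of Tmem173 to Tbk1 differed by 0.35 with all 8 tumors separate and paired by number (exact sign-flip test, p = 0.25). With 4 pairs this test cannot reach 0.05, and it counts PBS-treated tumors 2 and 4 as separate samples.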
